A study of Homo sapiens with 6 samples.

Results

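The genes described here are 29 enzymes and enzyme subunits that make cholesterol and the other isoprenoids. They form a named list, chosen with earlier results of these data known. The list was taken in pathway order, by name and not by a threshold on measured values, from gene tables of 62656 genes. Of these genes, 19029 had enough reads to be tested, and all 29 enzymes were among them. RNA sequencing had been done on OVCAR5, an established human line that serves as an ovarian cancer model, grown in medium with serum. In 3 libraries the cells had been treated with 100 nM NTX301, which the labels call a DNA hypomethylating agent, and in 3 libraries with its solvent DMSO, both for 3 days. The labels name a 10 nM dose and methylation arrays as well, which were not analysed here. The study addressed how NTX301 acts against ovarian cancer cells, and the question for these genes is how the RNA of each pathway step differed between treated and control cells.

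All isoprenoids are built from acetyl-CoA through mevalonate, which is phosphorylated and decarboxylated into the isoprene unit isopentenyl diphosphate. Units are joined into farnesyl diphosphate, the branch point from which cells make squalene and then cholesterol, or geranylgeranyl diphosphate, the tail of ubiquinone, dolichol for protein glycosylation, and the lipid anchors of small GTPases. Transcription of most steps is driven by the SREBP factors, which SCAP escorts out of the endoplasmic reticulum for cleavage when sterol is low and which INSIG proteins hold back when sterol is high.

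The libraries held 23194160, 23842859 and 23777071 expected counts with NTX301, against 25572170, 25743732 and 22131175 with DMSO. On the leading principal component, with 79.9% of the variance, the treatments lay apart, and on the next, with 6.34%, DMSO replicate 3 lay away from the other libraries. NTX301 changed much of the transcriptome: 70.5% of the tested genes passed edgeR's quasi-likelihood test at a Benjamini-Hochberg adjusted p under 0.05, 35.4% higher and 35.1% lower, with a median log2 fold change of 0.00. Of all calls 50.3% were higher in this fit, against 65.0% without library scaling factors and 66.7% on log2(TPM + 1). Epithelial markers stood at a summed 1984 to 2098 CPM with NTX301 and 3993 to 4282 CPM with DMSO, with all 7 of 7 at or above 1 CPM in DMSO cells, 2 higher and 5 lower. Ovarian carcinoma markers summed to 14.3 to 16.0 CPM with NTX301, against 15.3 to 19.3 CPM with DMSO, and colon and upper gut markers to 12.3 to 14.7 CPM, against 17.9 to 19.3 CPM. The ovarian marker PAX8 averaged 10.0 ± 0.60 CPM with NTX301 and 8.64 ± 1.17 CPM with DMSO (SD, n = 3 each), WT1 had 10 and 3 counts in all, and the gut factor CDX2 averaged 8.50 ± 0.25 CPM with NTX301 and 8.59 ± 0.16 CPM with DMSO. The called members of these lists fell: MUC16 averaged 0.71 CPM with NTX301 and 3.55 CPM with DMSO (-2.31, edgeR adjusted p = 7.0e-06), and CDH17 averaged 2.53 CPM with NTX301 and 7.66 CPM with DMSO (-1.60, edgeR adjusted p = 4.3e-06). The ovarian marker MSLN averaged 4.50 CPM with NTX301 and 4.83 CPM with DMSO. Of the gut markers, VIL1 averaged 2.36 CPM with NTX301 and 1.71 CPM with DMSO, and LGALS4 0.34 and 0.43 CPM. CDX1, also a gut marker, had 4 and 0 counts in all. Markers of both lineages were thus present at low levels, and WT1 of the ovarian list and CDX1 of the gut list were near 0. Leukocyte markers summed to 65.4 to 67.6 CPM with NTX301, against 39.8 to 47.1 CPM with DMSO, mostly from CD68 and CD14, with LYZ lower (-0.57, edgeR adjusted p = 0.01), while PTPRC had 7 and 0 counts and CD3E had 1 and 0 counts. Fibroblast markers summed to 14.3 to 15.0 CPM with NTX301, against 2.89 to 3.90 CPM with DMSO, with PDGFRA and PDGFRB higher and LUM lower (-0.66, edgeR adjusted p = 0.012), while DCN had 6 and 1 counts and COL1A2 had 3 and 0. Endothelial markers summed to 6.01 to 6.56 CPM with NTX301, against 4.79 to 5.44 CPM with DMSO. The part of these differences in the results below was not tested, and in bulk RNA fewer cells of a kind cannot be told apart from less RNA per cell.

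The enzymes that lead to cholesterol were broadly lower with NTX301, and those of the side branches were divided. Over the 29 genes 21 fell, 5 rose and 3 did not pass the test, with a median log2 fold change of -0.56 and a range from -1.82 to 1.25. Of the 20 enzymes grouped as the route from acetyl-CoA to cholesterol, 18 fell, 1 rose and 1 did not pass, with a median of -0.72. This group counts GGPS1 (-0.26, lower) with FDPS as a prenyl diphosphate synthase, although the product of GGPS1 leads away from cholesterol. Of the 9 in the side branches, 3 fell, 4 rose and 2 did not pass, with a median of -0.06. The background for these counts is the 35.1% of all tested genes that fell and the 35.4% that rose. A fall of 2-fold or more was seen in 7 enzymes, all on the route to cholesterol, against 8.55% of all tested genes. In CPM, every library of a group lay below every library of the other for 21 enzymes that were lower with NTX301 and above for 5 that were higher, against 36.5% and 37.2% of all tested genes.

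**Figure D1:**
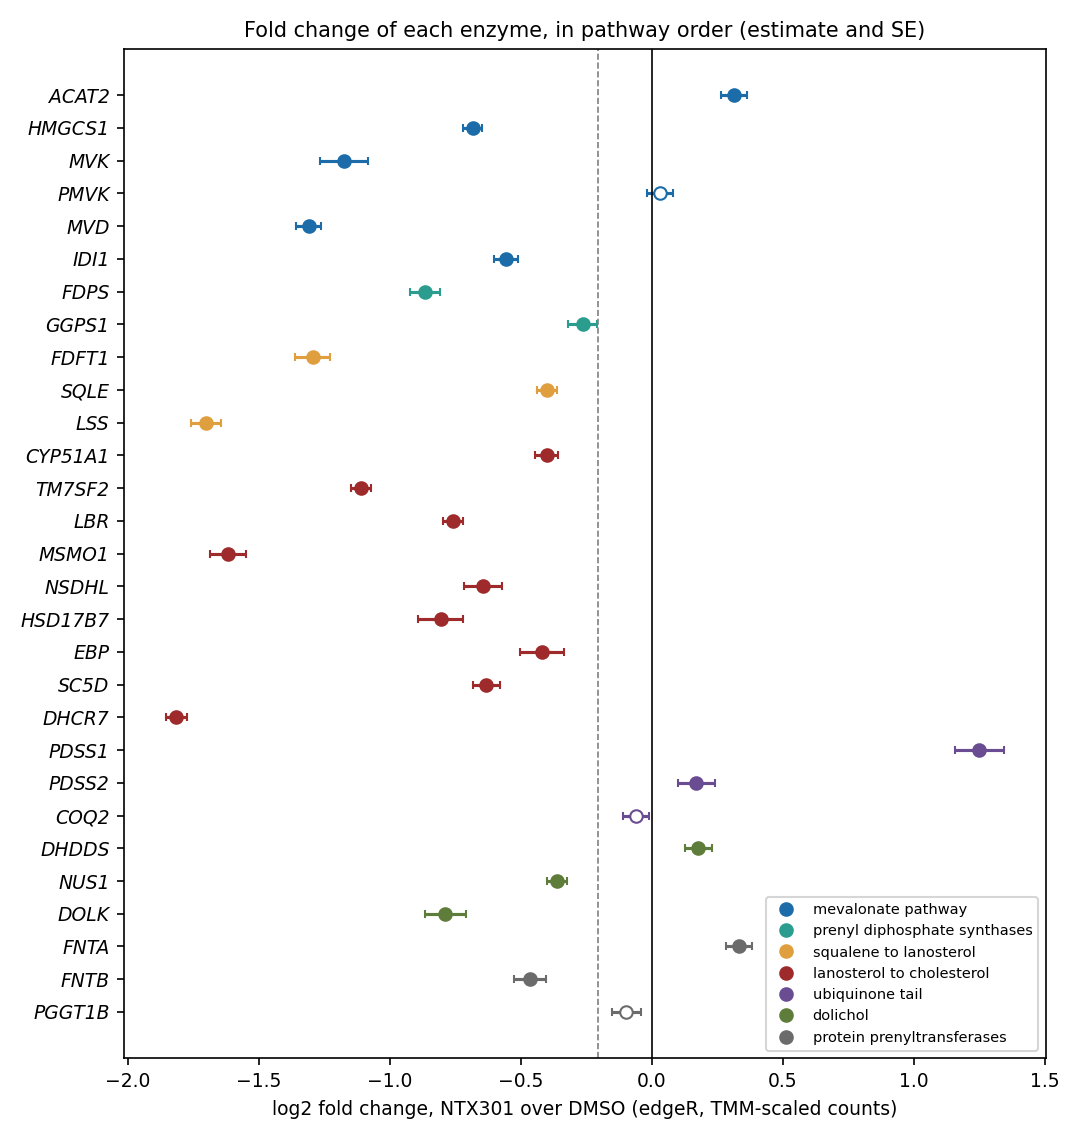
Log2 fold change, NTX301 over DMSO, of each of the 29 enzymes in pathway order, with standard errors, from edgeR on TMM-scaled counts of 3 libraries each. Filled points passed the adjusted p threshold of 0.05 and open points did not; the dashed line marks where no change would lie without scaling factors, 0.21 to the left of zero. The 9 enzymes from lanosterol to cholesterol all lie left of zero, down to -1.82 for DHCR7, and PDSS1 lies farthest right at 1.25.

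**Figure D2:**
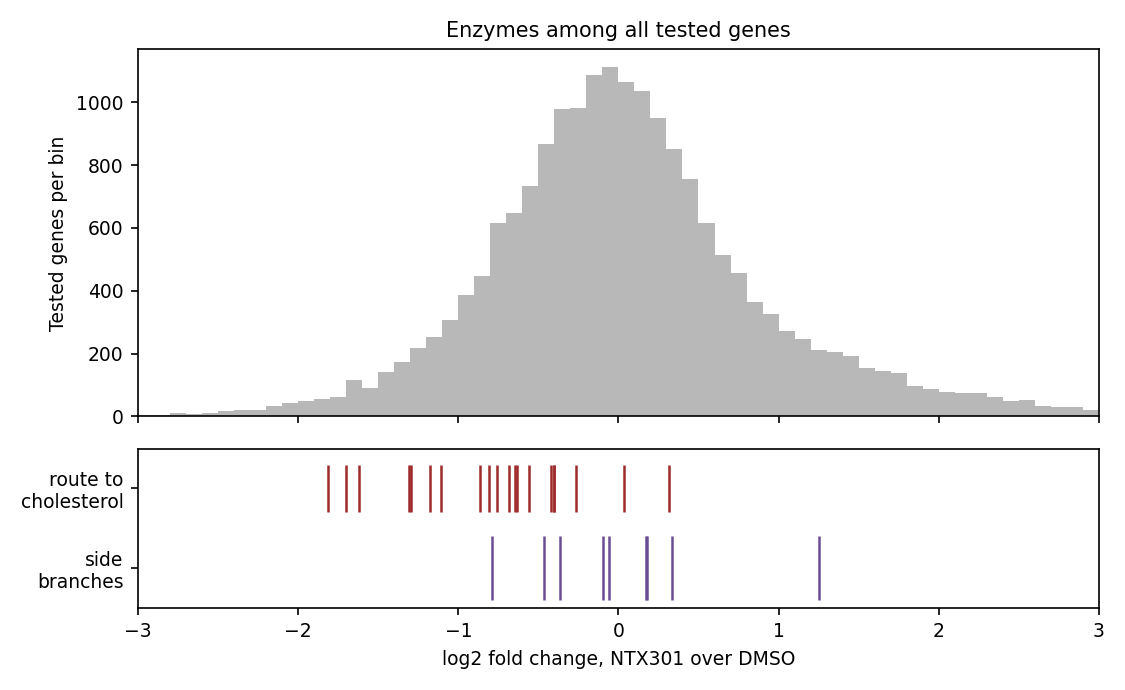
Histogram of log2 fold changes, NTX301 over DMSO, of all tested genes in bins of 0.1 (342 genes beyond ±3 not drawn), with each enzyme of the route to cholesterol and of the side branches as a line below. The route enzymes, with GGPS1 counted among them, centre on -0.72 and the side branches on -0.06, where the tested genes centre on 0.00.

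Upstream sequences are shown for 4 of the enzymes, because they are the promoters next to the RNA differences described below. The 3 enzymes DHCR7, LSS and MSMO1 fell strongly, and DHDDS rose by only 0.18 on the log2 scale. MSMO1 and DHDDS were added after the values were seen, so no contrast between falling and rising enzymes can be read from these stretches. DHCR7 lies at chr11:71428193-71452868, LSS at chr21:46188141-46228824, MSMO1 at chr4:165327623-165343160 and DHDDS at chr1:26432282-26471294 (GENCODE 29, GRCh38). The sequences are RefSeq's (GRCh38.p14), end toward the gene's start, and are cut to bases that no exon in GENCODE 29 covers. They run 5′ to 3′ on the gene's strand, and capitals mark the NF-Y box CCAAT and the Sp1 core GGGCGG on either strand, ATTGG and CCGCCC being the same motifs on the other strand. The stretches are chr11:71448436-71448643 (minus strand, in an intron of a longer DHCR7 transcript) for DHCR7, chr21:46228825-46229024 (minus strand) for LSS, chr4:165327419-165327622 (plus strand) for MSMO1 and chr1:26432071-26432281 (plus strand) for DHDDS, the last 3 outside annotated genes.
DHCR7: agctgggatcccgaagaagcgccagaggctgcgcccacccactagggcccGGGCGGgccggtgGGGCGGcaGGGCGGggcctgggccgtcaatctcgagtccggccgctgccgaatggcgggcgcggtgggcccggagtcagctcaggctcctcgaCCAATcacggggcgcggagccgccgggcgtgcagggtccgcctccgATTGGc
LSS: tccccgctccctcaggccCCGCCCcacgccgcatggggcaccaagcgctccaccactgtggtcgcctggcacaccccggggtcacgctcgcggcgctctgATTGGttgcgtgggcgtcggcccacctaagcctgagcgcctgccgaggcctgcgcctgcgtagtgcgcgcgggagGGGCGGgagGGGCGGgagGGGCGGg
MSMO1: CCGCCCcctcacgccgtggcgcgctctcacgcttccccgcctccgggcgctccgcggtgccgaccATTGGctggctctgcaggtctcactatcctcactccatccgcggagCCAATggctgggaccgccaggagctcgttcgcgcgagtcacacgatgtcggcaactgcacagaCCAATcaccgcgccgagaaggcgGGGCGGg
DHDDS: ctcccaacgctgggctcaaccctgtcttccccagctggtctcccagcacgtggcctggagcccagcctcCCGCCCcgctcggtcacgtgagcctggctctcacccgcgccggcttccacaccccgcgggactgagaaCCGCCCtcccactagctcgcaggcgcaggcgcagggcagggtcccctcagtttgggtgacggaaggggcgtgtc

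In these stretches DHCR7 had 2 NF-Y boxes and 3 Sp1 cores, LSS had 1 and 4, MSMO1 had 3 and 2, and DHDDS had 0 and 2. Promoter windows of 300 bases, from 250 before to 50 after the start, were held for 25 of the 29 enzymes, and none was held for ACAT2, FDFT1, SQLE and FNTA. An NF-Y box on either strand was found in 17 of 25 windows (68.0%), against 35.7% of 27305 promoters. It was in 12 of 17 windows of the route to cholesterol (70.6%) and in 5 of 8 of the side branches (62.5%). The route windows include that of GGPS1, which had no NF-Y box. An Sp1 core was found in 21 of 25 windows (84.0%), against 44.6% of all promoters. The sterol response motif TCACNCCAC, searched on both strands, was in 0 of 25 windows and in 1.15% of all promoters, which says only that these letters are not in the windows. A CCAAT box and an Sp1 core can share letters where they adjoin, and each was counted on its own. The windows of the enzymes held a median of 27 CpG sites (8 to 42), against 14 over all promoters, and the fewest were in LBR. The motif shares over all promoters were not matched for CpG content.

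Within the mevalonate pathway, 4 of 6 enzymes fell, the entry enzyme rose and PMVK did not pass the test. Levels are given in CPM, read counts relative to the library total after TMM scaling, where a gene is compared between libraries. MVD, the decarboxylase that yields isopentenyl diphosphate, had 28.3, 30.5 and 31.2 CPM with NTX301, against 73.4, 75.2 and 74.3 CPM with DMSO, a log2 fold change of -1.31 ± 0.05 (SE; edgeR adjusted p = 5.3e-10). MVK, which phosphorylates mevalonate, had 7.30, 7.71 and 8.32 CPM with NTX301, against 19.0, 17.9 and 15.8 CPM with DMSO (-1.18 ± 0.09, edgeR adjusted p = 3.3e-07). For both enzymes every treated library lay below the lowest control. MVK shares 306 exon bases with MMAB on the opposite strand, which had 193% of its count and a log2 fold change of -1.25. The part of MMAB reads in the MVK value was not tested, and no source used here states whether reads were counted by strand.

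HMGCS1, the synthase that adds acetyl-CoA to acetoacetyl-CoA, had 135.2, 134.0 and 139.5 CPM with NTX301, against 222.3, 215.2 and 218.6 CPM with DMSO (-0.68 ± 0.04, edgeR adjusted p = 1.1e-08). IDI1, which isomerizes isopentenyl diphosphate, had 68.1, 68.2 and 68.9 CPM with NTX301, against 105.8, 100.8 and 95.1 CPM with DMSO (-0.56 ± 0.04, edgeR adjusted p = 3.9e-07). Both differences were smaller than those of MVK and MVD, and in neither did the groups overlap. PMVK, the next kinase after MVK, had 33.9, 33.4 and 31.5 CPM with NTX301, against 32.5, 32.7 and 31.3 CPM with DMSO (0.03 ± 0.05, edgeR adjusted p = 0.59). Its groups overlapped in CPM, although on the TPM scale it had 66.6 to 68.4 with NTX301 and 56.1 to 58.0 with DMSO. ACAT2, the cytosolic thiolase that starts the pathway, had 54.1, 53.9 and 51.3 CPM with NTX301, against 43.8, 44.1 and 40.1 CPM with DMSO (0.31 ± 0.05, edgeR adjusted p = 0.00014). It was the only enzyme of the route that rose in this fit, PMVK being called as well without scaling factors (0.24, edgeR adjusted p = 0.00084), and its groups did not overlap. It shares 397 exon bases on the opposite strand with TCP1, which had 489% of its count and a log2 fold change of 0.87; the part of TCP1 reads in the ACAT2 value was not tested.

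At the branch point both prenyl diphosphate synthases fell, FDPS more than GGPS1. FDPS, which makes farnesyl diphosphate, had 77.0, 76.9 and 78.6 CPM with NTX301, against 143.1, 152.2 and 128.2 CPM with DMSO (-0.87 ± 0.06, edgeR adjusted p = 6.4e-08). GGPS1, which extends it to geranylgeranyl diphosphate, had 29.2, 28.2 and 27.3 CPM with NTX301, against 34.3, 32.0 and 35.6 CPM with DMSO (-0.26 ± 0.06, edgeR adjusted p = 0.0011). In CPM the groups overlapped in neither. In TPM those of GGPS1 did overlap, at 33.2 to 35.2 with NTX301 and 34.4 to 38.1 with DMSO. The call of GGPS1 was lost without scaling factors (-0.06, edgeR adjusted p = 0.37). GGPS1 also shares 1422 exon bases with TBCE on its own strand, so the division of reads between them is uncertain. On the opposite strand GGPS1 shares 138 exon bases with ARID4B, which had 191% of its count and a log2 fold change of -0.24. The part of ARID4B reads in the GGPS1 value was not tested.

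All 3 enzymes from squalene to lanosterol fell, by very different amounts. LSS, the cyclase that makes lanosterol, had 44.4, 43.2 and 51.0 CPM with NTX301, against 148.4, 148.2 and 154.4 CPM with DMSO, a 3.25-fold fall (-1.70 ± 0.06, edgeR adjusted p = 3.3e-10). FDFT1, squalene synthase, had 57.5, 55.4 and 58.1 CPM with NTX301, against 150.5, 145.2 and 123.5 CPM with DMSO (-1.29 ± 0.07, edgeR adjusted p = 8.0e-09). SQLE, the epoxidase between them, had 159.2, 162.8 and 161.5 CPM with NTX301, against 219.1, 206.9 and 211.9 CPM with DMSO (-0.40 ± 0.04, edgeR adjusted p = 1.4e-06). The treated libraries lay below the controls in each, and SQLE, whose reaction is a known control step of sterol synthesis, moved least.

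All 9 enzymes from lanosterol to cholesterol fell. DHCR7, the reductase of the last step on the branch through dehydrocholesterol, fell most of the 29 enzymes. It had 69.7, 72.7 and 73.8 CPM with NTX301, against 259.5, 251.9 and 250.1 CPM with DMSO, a 3.52-fold fall (-1.82 ± 0.04, edgeR adjusted p = 2.7e-11). The controls were spread over less than 10 CPM and lay far above the treated libraries, and 1.51% of all tested genes had a lower fold change. MSMO1, the oxidase that starts removal of the sterol methyl groups left after CYP51A1, had 15.2, 14.8 and 14.5 CPM with NTX301, against 50.2, 42.4 and 43.9 CPM with DMSO, a 3.07-fold fall (-1.62 ± 0.07, edgeR adjusted p = 2.0e-09). The other enzymes of that demethylation fell less. NSDHL, the decarboxylating dehydrogenase, had 14.7, 16.2 and 14.5 CPM with NTX301, against 25.1, 23.8 and 22.0 CPM with DMSO (-0.64 ± 0.07, edgeR adjusted p = 6.3e-06). HSD17B7, the ketone reductase, had 6.98, 7.79 and 7.16 CPM with NTX301, against 13.3, 12.8 and 12.2 CPM with DMSO (-0.81 ± 0.09, edgeR adjusted p = 4.7e-06).

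TM7SF2 and LBR are reductases for the same step after CYP51A1, and LBR is also a protein of the inner nuclear membrane that binds lamin and heterochromatin. TM7SF2 had 57.7, 59.8 and 56.2 CPM with NTX301, against 125.2, 125.1 and 125.0 CPM with DMSO (-1.11 ± 0.04, edgeR adjusted p = 4.4e-10). LBR had 162.7, 162.0 and 160.0 CPM with NTX301, against 282.6, 271.0 and 265.7 CPM with DMSO (-0.76 ± 0.04, edgeR adjusted p = 6.6e-09). Both were lower in every treated library. CYP51A1, the lanosterol demethylase before them, had 74.4, 68.1 and 72.5 CPM with NTX301, against 96.6, 92.8 and 94.6 CPM with DMSO (-0.40 ± 0.04, edgeR adjusted p = 5.0e-06). EBP, the sterol isomerase, had 24.4, 24.0 and 21.0 CPM with NTX301, against 31.8, 33.7 and 27.1 CPM with DMSO (-0.42 ± 0.08, edgeR adjusted p = 0.00072). SC5D, the desaturase that precedes DHCR7, had 44.5, 46.7 and 43.1 CPM with NTX301, against 73.4, 66.2 and 68.6 CPM with DMSO (-0.63 ± 0.05, edgeR adjusted p = 4.0e-07). CYP51A1 and EBP were the least lowered of the 9 enzymes, and their groups did not overlap in CPM. In TPM the groups of EBP overlapped, at 39.2 to 43.6 with NTX301 and 43.4 to 52.7 with DMSO.

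Among the 3 genes for the ubiquinone tail none fell. PDSS1 and PDSS2 are the subunits of the synthase that builds the tail. PDSS1 had 12.0, 12.2 and 12.4 CPM with NTX301, against 5.32, 5.42 and 4.63 CPM with DMSO, a 2.38-fold rise (1.25 ± 0.09, edgeR adjusted p = 2.0e-07). No other enzyme of the 29 rose by as much, and every treated library lay above the highest control. PDSS1 shares 206 exon bases with ABI1 on the opposite strand, which had 731% of its count and a log2 fold change of -0.16. The part of ABI1 reads in the PDSS1 value was not tested. PDSS2 had 19.6, 17.1 and 18.6 CPM with NTX301, against 17.0, 16.4 and 15.7 CPM with DMSO (0.17 ± 0.07, edgeR adjusted p = 0.047). That call was lost with DESeq2 (adjusted p = 0.23), limma-voom (adjusted p = 0.052), no filter on low counts (edgeR adjusted p = 0.16) and without NTX301 replicate 1 or 3 or any of the 3 DMSO replicates (edgeR adjusted p of 0.058 to 0.19). COQ2, which joins the tail to the ring, had 26.6, 28.6 and 28.0 CPM with NTX301, against 28.5, 29.2 and 29.1 CPM with DMSO (-0.06 ± 0.05, edgeR adjusted p = 0.29), and its groups overlapped. It was called higher without scaling factors (0.15, edgeR adjusted p = 0.024) and on log2(TPM + 1) (0.14, limma adjusted p = 0.036).

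In the dolichol branch 2 genes fell and 1 rose. DHDDS and NUS1 are the subunits of the prenyltransferase that makes the dolichol chain, and they moved in opposite directions. DHDDS had 33.9, 37.1 and 34.0 CPM with NTX301, against 31.4, 30.9 and 30.4 CPM with DMSO (0.18 ± 0.05, edgeR adjusted p = 0.0094), a call that DESeq2 did not make (adjusted p = 0.075). NUS1 had 113.7, 116.6 and 108.7 CPM with NTX301, against 141.9, 147.7 and 146.2 CPM with DMSO (-0.36 ± 0.04, edgeR adjusted p = 6.1e-06). DOLK, which phosphorylates dolichol, had 19.4, 21.7 and 19.3 CPM with NTX301, against 35.0, 38.2 and 31.0 CPM with DMSO (-0.79 ± 0.08, edgeR adjusted p = 2.4e-06). Groups did not overlap in any of the 3 genes.

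Subunits of the protein prenyltransferases went different ways. FNTA is the alpha subunit shared by farnesyltransferase and a geranylgeranyl transferase. It had 128.9, 122.2 and 118.8 CPM with NTX301, against 103.7, 98.5 and 91.2 CPM with DMSO (0.33 ± 0.05, edgeR adjusted p = 1.0e-04). FNTB, the beta subunit of farnesyltransferase, had 19.3, 16.9 and 18.8 CPM with NTX301, against 25.6, 25.3 and 25.1 CPM with DMSO (-0.47 ± 0.06, edgeR adjusted p = 3.2e-05). Neither pair of groups overlapped. FNTB shares 1661 exon bases with the readthrough gene CHURC1-FNTB, which had 20.4% of its count and a log2 fold change of -0.52, so the split between them is uncertain. PGGT1B, the beta subunit of the geranylgeranyl transferase, had 48.3, 46.9 and 46.4 CPM with NTX301, against 50.4, 47.0 and 54.3 CPM with DMSO (-0.10 ± 0.05, edgeR adjusted p = 0.13). Its groups overlapped in CPM, but on log2(TPM + 1) its value was 0.51 (limma adjusted p = 0.00022). The effective length that divides the TPM of PGGT1B was 2766 bases with NTX301 and 3701 bases with DMSO, a larger difference than for any other of the 29 genes.

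Levels of different genes can be compared only per length, in TPM, a relative transcript abundance that the authors deposited and that has no TMM scaling. With DMSO the order was led by FDPS at 201.9 ± 15.4 TPM (SD, n = 3), DHCR7 at 172.7 ± 0.62, FDFT1 at 144.0 ± 11.2 and TM7SF2 at 136.8 ± 3.13, and FDFT1 and TM7SF2 overlapped. It ended with MVK at 14.7 ± 1.10 TPM, PDSS2 at 9.20 ± 0.26 and PDSS1 at 5.58 ± 0.38, which were separate. With NTX301 the order was led by FNTA at 146.2 ± 4.59 TPM, FDPS at 126.9 ± 5.48 and SQLE at 108.0 ± 3.70, DHCR7 was at 56.2 ± 3.98, and MVK was lowest at 7.46 ± 0.99. DHCR7 thus held rank 10 of 29 with NTX301 and rank 2 with DMSO, LSS rank 21 and rank 11, and FNTA rank 1 and rank 8.

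**Figure D3:**
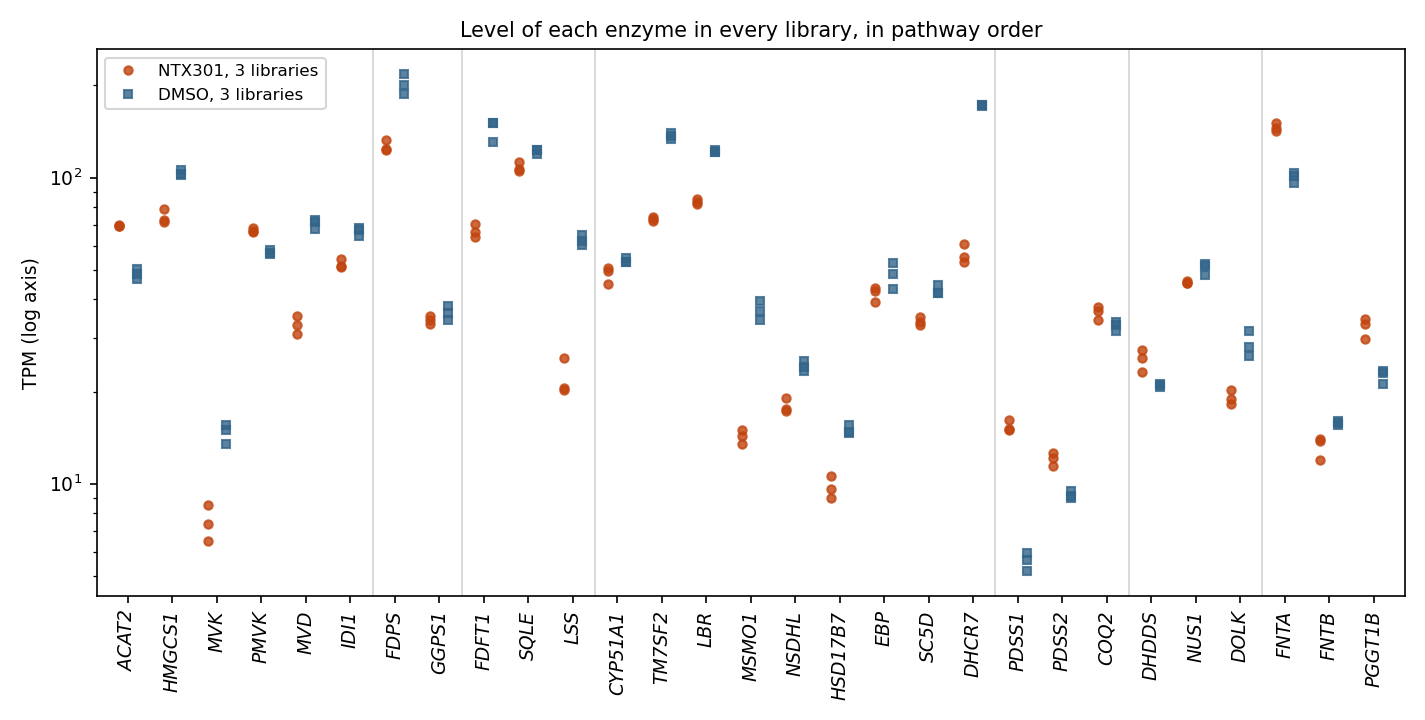
TPM of each enzyme in every library on a log axis, NTX301 as circles to the left of DMSO as squares, in pathway order, with grey lines between stages. DHCR7 shows treated libraries from 52.9 to 60.6 TPM under controls from 172.0 to 173.3 TPM, while PDSS1 shows treated libraries from 14.9 to 16.1 TPM above controls from 5.18 to 5.93 TPM.

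Summed over stages, the TPM of the later sterol steps were lowest relative to DMSO. The 9 enzymes from lanosterol to cholesterol summed to 378.9 ± 4.07 TPM with NTX301 and 652.0 ± 3.35 TPM with DMSO (SD, n = 3 each), or 58.1% of the DMSO level. The 3 from squalene to lanosterol summed to 197.2 ± 9.79 TPM with NTX301 and 328.1 ± 7.73 TPM with DMSO (60.1%), and the 2 prenyl diphosphate synthases to 161.1 ± 5.77 TPM with NTX301 and 238.1 ± 13.6 TPM with DMSO (67.7%). The mevalonate stage, with 304.0 ± 7.61 TPM with NTX301 and 361.1 ± 2.83 TPM with DMSO, stood at 84.2%. Its smaller difference has PMVK and ACAT2 in the sum, both higher in TPM. The dolichol genes summed to 90.0 ± 3.49 TPM with NTX301 and 100.0 ± 3.70 TPM with DMSO, the ubiquinone tail genes to 63.6 ± 2.09 TPM with NTX301 and 47.5 ± 1.22 TPM with DMSO, and the prenyltransferase subunits to 191.9 ± 7.45 TPM with NTX301 and 138.5 ± 3.73 TPM with DMSO. Library sums overlapped in none of the 7 stages. Which gene led a stage also differed: SQLE held 54.8% of the squalene to lanosterol sum with NTX301, where FDFT1 held 43.9% with DMSO, and LBR held 22.0% of the lanosterol to cholesterol sum with NTX301, where DHCR7 held 26.5% with DMSO. All these sums lie on a scale on which the median of all tested genes was 0.17 higher (log2, with a pseudocount of 1).

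**Figure D4:**
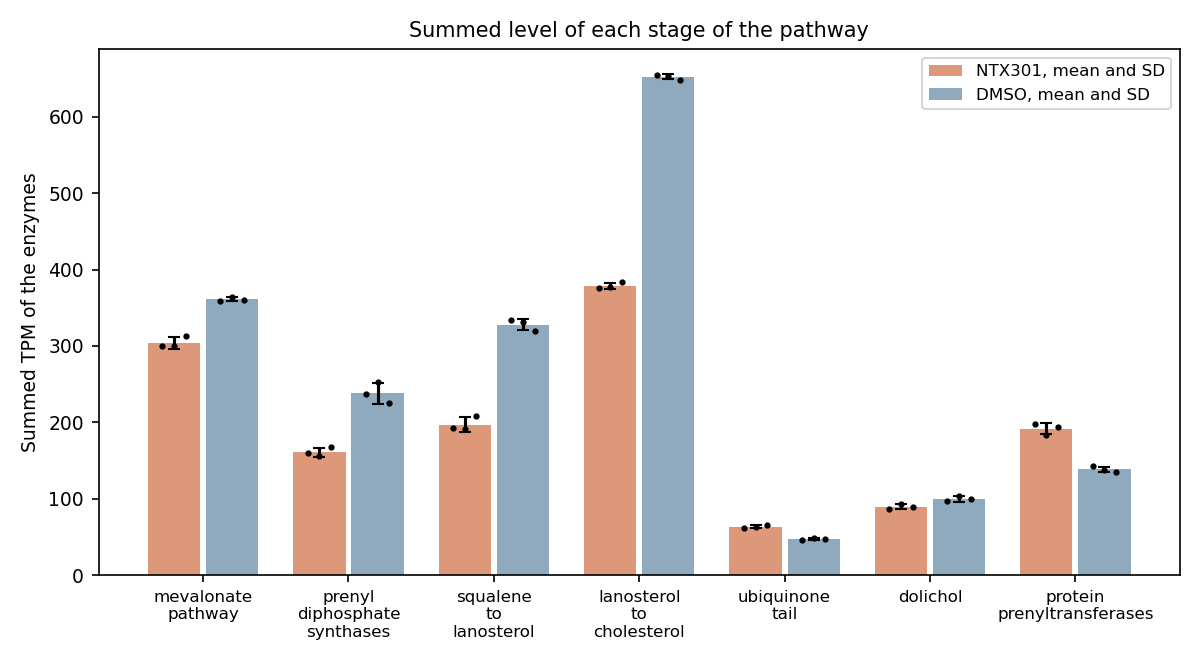
Summed TPM of the enzymes of each of the 7 stages, with bars for the mean, error bars for the SD and points for the 3 libraries, NTX301 left of DMSO. The lanosterol to cholesterol bars stand at 378.9 TPM with NTX301 and 652.0 TPM with DMSO, and the protein prenyltransferase bars at 191.9 TPM with NTX301 and 138.5 TPM with DMSO.

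Ratios of enzymes within a library do not depend on library scaling, and 8 were compared. None of the 8 overlapped between groups, and each reached the smallest p that an exact two-sided permutation test of 3 against 3 libraries can give, 0.1 (0.1 also after Benjamini-Hochberg adjustment over the 8 ratios), so none could pass 0.05. LSS over SQLE was 0.204 with NTX301 and 0.511 with DMSO, a log2 difference of -1.33. FDFT1 over GGPS1, the sterol against the geranylgeranyl use of farnesyl diphosphate, was 1.96 with NTX301 and 3.97 with DMSO (-1.02), and FDPS over GGPS1 was 3.71 with NTX301 and 5.57 with DMSO (-0.59). TM7SF2 over LBR was 0.876 with NTX301 and 1.12 with DMSO (-0.35), so LBR had the higher level with NTX301 and TM7SF2 with DMSO. PDSS1 over PDSS2 was 1.28 with NTX301 and 0.606 with DMSO (1.08), also with the order of the subunits turned. DHDDS over NUS1 was 0.558 with NTX301 and 0.415 with DMSO (0.43). FNTB over FNTA was 0.0902 with NTX301 and 0.157 with DMSO (-0.80). FNTB over PGGT1B was 0.406 with NTX301 and 0.703 with DMSO (-0.79), but the difference was -0.37 in counts, where the effective length of PGGT1B does not enter.

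**Figure D5:**
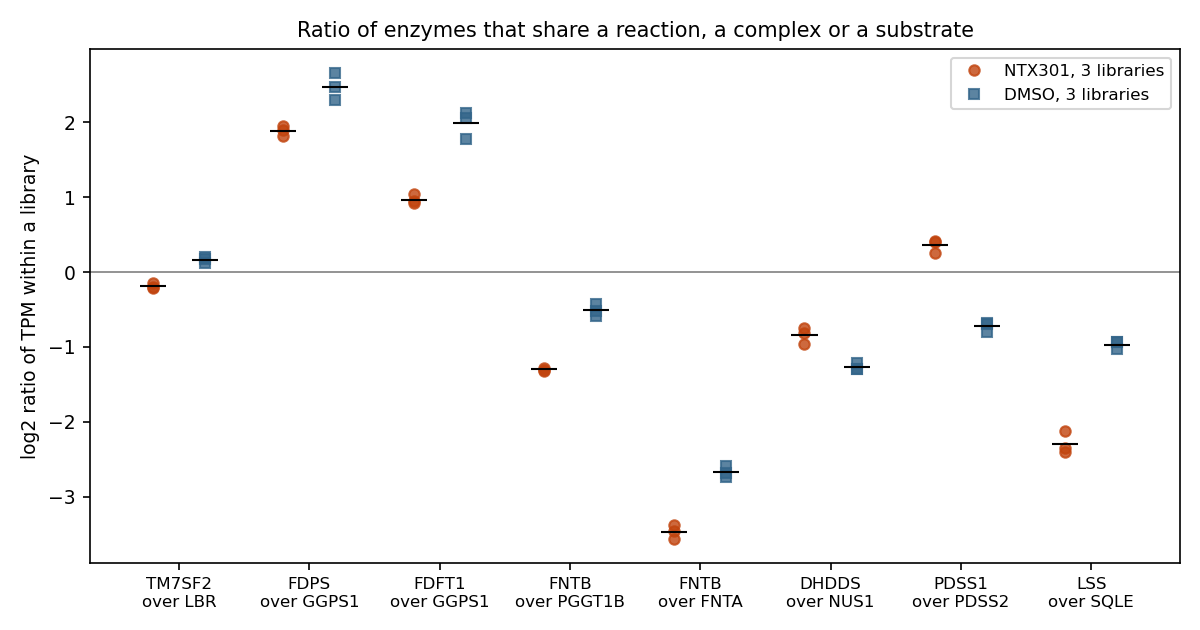
Log2 ratio of the TPM of 2 enzymes in each library, with NTX301 as circles left of DMSO as squares and a line at each mean, for the 8 ratios. The ratio of TM7SF2 to LBR lies between -0.22 and -0.15 with NTX301 and between 0.12 and 0.20 with DMSO.

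Most genes listed for control of the pathway or for sterol handling were lower with NTX301 as well. Of 20 genes listed for SREBP control and sterol handling, 19 were tested, of which 16 fell, 2 rose and 1 did not pass. Their median log2 fold change was -0.83, where 35.4% of all tested genes rose and 35.1% fell. Without scaling factors and on both TPM scales 14 fell and 3 rose. IDI2 was at 0 in all libraries. The list was chosen with earlier results of these data known, so its count only describes the listed genes. SREBF2, which encodes the factor that acts mostly on sterol genes, had 43.0, 41.5 and 44.5 CPM with NTX301, against 141.3, 138.4 and 137.9 CPM with DMSO (-1.69 ± 0.04, edgeR adjusted p = 4.6e-11). SREBF1, which acts mostly on fatty acid genes, had 102.8, 104.2 and 105.3 CPM with NTX301, against 499.8, 483.9 and 465.8 CPM with DMSO (-2.21 ± 0.04, edgeR adjusted p = 2.2e-11). Groups lay far apart in both. SCAP fell by 0.94 on the log2 scale, to 40.6 ± 1.35 CPM with NTX301, against 77.8 ± 1.71 CPM with DMSO. INSIG1 averaged 34.4 ± 1.14 CPM with NTX301 and 123.2 ± 7.85 CPM with DMSO (-1.84), and INSIG2 averaged 50.9 ± 0.71 CPM with NTX301 and 102.4 ± 2.83 CPM with DMSO (-1.01), so the RNA of the escort and of both retaining proteins was lower. Among the genes that rose was TMEM97, a sterol-binding membrane protein (0.51 ± 0.07). The gene that did not pass was MBTPS2, a protease of SREBP cleavage (0.05 ± 0.05), while the protease gene MBTPS1 fell (-1.10 ± 0.04); the protease genes were chosen after their values were seen.

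For the neighbours of the side branches the counts lay nearer the background, in which 35.4% of all tested genes rose and 35.1% fell. Of 9 genes that build or use the ubiquinone ring, 4 rose, 3 fell and 2 did not pass, with a median log2 fold change of 0.11. COQ6, a hydroxylase of the ring, rose to 20.9 ± 1.12 CPM with NTX301, against 14.6 ± 1.58 CPM with DMSO (0.51 ± 0.08), and COQ10B, a quinone-binding protein, rose by 0.39 ± 0.06. COQ8B (-0.76 ± 0.07) and COQ8A (-0.45 ± 0.05), kinase-like proteins of the ubiquinone synthesis complex, fell. Of 10 genes that use or recycle dolichol, 3 rose, 6 fell and 1 did not pass, with a median of -0.22, but 3 rose and 3 fell without scaling factors, and 5 rose and 3 fell on log2(TPM + 1) and on log2(TPM + 0.1). DPM1 (0.47 ± 0.05), the catalytic subunit of dolichol phosphate mannose synthase, and ALG5 (0.32 ± 0.08), which makes dolichol phosphate glucose, rose. DPM3 (-1.38 ± 0.14), the small subunit that anchors DPM1, and DOLPP1 (-0.66 ± 0.06), a phosphatase of dolichol recycling, fell. DPM3 had 2.86, 2.87 and 2.48 CPM with NTX301, against 7.31, 8.11 and 5.97 CPM with DMSO, which did not overlap.

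Proliferation genes moved the other way from the sterol enzymes. Of 8 listed, 7 rose and 1 fell, with a median log2 fold change of 0.90, where 35.4% of all tested genes rose and 35.1% fell. This list was chosen with earlier results of these data known, so its count only describes the listed genes. TOP2A, which untangles DNA in dividing cells, averaged 933.8 ± 13.0 CPM with NTX301 and 312.4 ± 18.4 CPM with DMSO (1.58 ± 0.05), and MKI67 averaged 312.6 ± 18.2 CPM with NTX301 and 129.4 ± 5.61 CPM with DMSO (1.27 ± 0.05). The gene that fell was LMNB2, a B-type lamin of the lamina that LBR binds (-0.19 ± 0.04), a call that was lost without scaling factors. The part of these genes in the values of the enzymes was not tested.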

How the data were processed

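The data were RNA sequencing libraries of OVCAR5 cells, 3 treated with 100 nM NTX301 and 3 with DMSO for 3 days; groups and replicate numbers came from the labels. TRI Reagent served for RNA extraction and a NEBNext Ultra II kit for the libraries, per the labels' protocols. The authors deposited, per the file headers, RSEM gene tables with expected counts (estimated reads per gene, not normalized), TPM (abundance per length, summing to 1000000) and FPKM; the deposited FPKM values were not used. The sources used here give no tool versions, genome build, annotation or strand setting. RSEM divides reads between genes that share sequence. Each table had 62703 entries; 47 copies on chromosome Y of shared X genes were added to them.

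Expected counts were rounded and fitted with edgeR 4.0.16 (R 4.3.3; filterByExpr, TMM, glmQLFit and glmQLFTest on all 6 libraries with treatment as the term), with Benjamini-Hochberg adjustment over 19029 genes and a threshold of 0.05. Each standard error is the size of the fold change divided by the root of its F value. On simulated counts with 200 changed genes among 18625, 171 were recovered. Few genes changed there, equally many up and down, whereas 70.5% of the tested genes were called in these data. The simulation therefore cannot check the scaling. Within-library ratios used exact permutation tests (SciPy 1.17.1). Factors were 1.0679 to 1.0834 with NTX301 and 0.9206 to 0.939 with DMSO. Chi-square per degree of freedom was 2.37 to 6.57 between libraries of a group and 110.7 to 123.7 between groups, so none was taken for a duplicate. The labels do not say that replicates are separate cultures, so p-values may measure technical spread. Alternatives were DESeq2 1.42.0, limma-voom (limma 3.58.1), other scalings, no filter, log2(TPM + 1), log2(TPM + 0.1), a replicate block and each library left out.

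The enzymes and gene lists were chosen with earlier results of these data known. All 29 enzymes are named; outside them SREBF1, SREBF2, SCAP, INSIG1 and INSIG2, and from each list the 2 genes of lowest p in each direction. Promoter stretches were meant for the 2 largest falls, the largest rise and TM7SF2 and LBR; those of PDSS1, TM7SF2 and LBR are covered by exons over much of their length and are not shown, and MSMO1 and DHDDS were added after the values were seen. Downstream bases matched the gene's own GENCODE transcript for 19 of 25 windows and its reverse for 0. Results for a few listed genes are not reported here.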

Additional observations from a re-analysis of the deposited data

How the results depend on the processing

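Over 14 alternatives, 383 of the enzymes' fold changes kept their direction and their side of the threshold, 12 lost the call, 4 gained it and 7 turned sign. The fall of 17 of the 18 called route enzymes held under every alternative; the exception was GGPS1. The scale had the largest effect: without scaling factors the median of all tested genes was 0.21, and on log2(TPM + 1) it was 0.17. COQ2 then turned, and passed the threshold, at 0.15 without scaling factors, 0.14 on log2(TPM + 1) and 0.15 on log2(TPM + 0.1), and PGGT1B turned to 0.11, 0.51 and 0.53; PMVK ranged from -0.0013 (without DMSO replicate 3) to 0.0614 with a library left out. Route enzymes called higher were 2 without scaling factors and on both TPM scales, against 1, PMVK being the added call. All enzymes called higher were 8 on both TPM scales and 3 with DESeq2, against 5, and side branch enzymes called higher were 2 with DESeq2, against 4. Over all genes 4318 and 4297 were lower on log2(TPM + 1) and log2(TPM + 0.1), against 6677. Stage sums on TMM-scaled CPM, in place of TPM, differed by log2 -0.57 for the mevalonate pathway (TPM -0.25), -0.73 for prenyl diphosphate synthases (-0.56), -0.93 for squalene to lanosterol (-0.73), -0.99 for lanosterol to cholesterol (-0.78), 0.21 for the ubiquinone tail (0.42), -0.33 for dolichol (-0.15) and 0.12 for protein prenyltransferases (0.47). Gene length and the TMM factors enter these 2 scales differently by construction. Leaving out each library in turn gave 4 to 5 enzymes higher and 21 to 22 lower (PGGT1B, at -0.16, was added without DMSO replicate 2), and 4 and 21 without DMSO replicate 3, with a median of -0.61. Replicate numbers did not pair the libraries (correlations of same-numbered deviations of 0.08, -0.03 and 0.04); with a replicate block 5 enzymes were higher and 21 lower, with 6837 and 6749 over all genes. The lowest count of an enzyme in a library was 96, for PDSS1 with DMSO.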

Other observations

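Genes that act after the protein prenyltransferases gave counts close to the background, in which 35.4% of all tested genes rose and 35.1% fell. Of 9 listed for processing of prenylated proteins, 4 rose, 4 fell and 1 did not pass the test, with a median log2 fold change of -0.01. CHML, a RAB escort protein, rose to 45.6 ± 1.91 CPM with NTX301, against 22.6 ± 0.92 CPM with DMSO (1.01 ± 0.05, SE; edgeR adjusted p = 1.1e-08). ZMPSTE24, the protease that trims prenylated prelamin A, rose to 89.2 ± 3.52 CPM with NTX301, against 65.7 ± 3.18 CPM with DMSO (0.44 ± 0.05). RABGGTA, the alpha subunit of the transferase for RAB proteins, fell by 0.78 ± 0.07 on the log2 scale, and PCYOX1, which degrades prenylcysteine, fell by 0.64 ± 0.04.

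Of 8 genes whose proteins carry a prenyl anchor, 7 fell and 1 rose, with a median log2 fold change of -0.50, beside that same background. Without scaling factors 5 fell and 1 rose. Earlier results of these data were known when these genes were listed, so the count only describes them. RAC1, a regulator of the actin cytoskeleton, had 597.5, 596.3 and 578.0 CPM with NTX301, against 966.5, 913.5 and 898.2 CPM with DMSO (-0.65 ± 0.04, edgeR adjusted p = 5.1e-08). LMNA, which encodes the lamin made from a farnesylated precursor, had 281.2, 278.7 and 285.5 CPM with NTX301, against 409.5, 403.3 and 400.3 CPM with DMSO (-0.52 ± 0.04, edgeR adjusted p = 9.4e-08). RHOB, which can carry either anchor, was the gene that rose, with 114.3, 107.5 and 114.3 CPM with NTX301, against 87.2, 79.8 and 82.4 CPM with DMSO (0.43 ± 0.05, edgeR adjusted p = 4.1e-06). The groups did not overlap in RAC1, LMNA or RHOB.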
